A study of Mus musculus with 14 samples.

Results

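The RNA levels of 7 genes that write or maintain DNA methylation were followed in mouse embryonic stem (ES) cells during mTOR inhibition (mTORi). The genes were chosen by name and are *Dnmt1*, *Uhrf1*, *Uhrf2*, *Hells*, *Dnmt3a*, *Dnmt3b* and *Dnmt3l*. They are 7 of the 54446 gene identifiers in the RNA-seq data, and all 7 were among the 18232 genes that passed the filter on low values and were tested. Wild-type cells of the E14 line were sampled untreated (0 h) and after 24, 72 and 144 h of mTORi, which places ES cells in a dormant state in culture. The study used the inhibitors INK128 or RapaLink-1, and the labels do not say which was given to these cells. *Tet1/2* DKO cells, an E14 derivative without the TET1 and TET2 DNA demethylases, were collected untreated and after 24 or 72 h of mTORi. Each of the 7 groups has 2 libraries, 14 in all. All cells were grown without feeders in serum and LIF, sorted, and extracted from a fixed number of cells with ERCC spike-in RNA added. The DKO line was raised from cells that had been sorted singly after Cas9 editing, so its libraries stand for that line rather than for *Tet1/2* loss in general.

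DNA methylation is copied at each round of replication and can also be laid down anew. DNMT1 is the maintenance methyltransferase, which restores the mark on the new strand. UHRF1 binds hemimethylated DNA and brings DNMT1 to the replication fork, and UHRF2 is its relative, which does not replace it in maintenance. HELLS (also called LSH) is a chromatin remodeller needed for methylation of repeats. DNMT3A and DNMT3B are the de novo methyltransferases, and DNMT3L is a catalytically inactive cofactor that stimulates both and is abundant in ES cells. TET enzymes work against all of them by oxidizing methylated cytosine. Only RNA was measured here, so protein levels, enzyme activity and methylation itself are outside these values.

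Each gene lies on a different stretch of the mm10 genome. *Dnmt1* (ENSMUSG00000004099.16) is at chr9:20907209-20959888 on the minus strand, and the other genes are on the plus strand. *Uhrf1* (ENSMUSG00000001228.14) is at chr17:56303321-56323486. On chromosome 19 lie *Uhrf2* (ENSMUSG00000024817.13, chr19:30030513-30093722) and *Hells* (ENSMUSG00000025001.11, chr19:38930915-38971051). *Dnmt3a* (ENSMUSG00000020661.15) is at chr12:3806007-3914443, *Dnmt3b* (ENSMUSG00000027478.15) at chr2:153649450-153687730 and *Dnmt3l* (ENSMUSG00000000730.13) at chr10:78041947-78063622. *Dnmt3a*, *Dnmt3b* and *Dnmt3l* overlap the opposite-strand genes *Dnmt3aos*, *Dnmt3bos* and *Aire*, and the quantification is not stated to use strand, so reads from these partners cannot be told apart from theirs. *Dnmt3c*, a rodent copy of *Dnmt3b* that lies beside it, was listed at 1.30 to 4.63 TPM over the 14 libraries, against 75.5 to 194 TPM for *Dnmt3b*.

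Promoter sequence is shown for the genes that fell at 24 h (below) and for *Dnmt1* and *Dnmt3l*, which are set beside them. RefSeq windows of 250 bases before and 50 bases after a start site (GRCm38.p6, the assembly that mm10 names) were in hand for all 7 genes, 14 windows in total, since *Dnmt1*, *Dnmt3a* and *Dnmt3l* have 3 start sites each and *Uhrf1* has 2. *Dnmt1*, *Dnmt3a* and *Dnmt3l* are shown at 1 of their 3 sites, the one whose window holds a match to an E2F motif or the E-box (below). The 120 bases before the start are printed 5′ to 3′ on the strand of the gene. Capitals mark TTTCCCGC, the E2F motif of replication genes, or CACGTG, the E-box read by MYC and TFE3 family proteins.
*Hells*, chr19:38930870-38930989, plus strand: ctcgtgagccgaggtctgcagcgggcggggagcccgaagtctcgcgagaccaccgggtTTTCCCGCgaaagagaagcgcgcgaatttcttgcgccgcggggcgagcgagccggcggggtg
*Uhrf1* start site 1, chr17:56303217-56303336, plus strand: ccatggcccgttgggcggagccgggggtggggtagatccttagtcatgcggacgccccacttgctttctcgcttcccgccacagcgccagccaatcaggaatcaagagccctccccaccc
*Uhrf1* start site 2, chr17:56304193-56304312, plus strand: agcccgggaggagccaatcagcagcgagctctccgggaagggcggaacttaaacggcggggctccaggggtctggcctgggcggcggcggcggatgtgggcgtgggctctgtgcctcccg
*Dnmt3a* start site 3, chr12:3891624-3891743, plus strand: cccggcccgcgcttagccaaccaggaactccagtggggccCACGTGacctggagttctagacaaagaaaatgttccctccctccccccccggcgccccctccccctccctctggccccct
*Dnmt3b*, chr2:153649329-153649448, plus strand: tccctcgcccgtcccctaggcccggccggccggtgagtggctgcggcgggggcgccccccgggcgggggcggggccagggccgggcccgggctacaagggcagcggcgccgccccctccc
*Dnmt1* start site 3, chr9:20952624-20952743, minus strand: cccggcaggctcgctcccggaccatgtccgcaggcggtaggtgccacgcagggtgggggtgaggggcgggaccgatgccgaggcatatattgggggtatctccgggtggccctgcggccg
*Dnmt3l* start site 2, chr10:78049722-78049841, plus strand: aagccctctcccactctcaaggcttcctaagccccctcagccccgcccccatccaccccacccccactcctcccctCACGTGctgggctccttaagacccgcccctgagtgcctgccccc

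Searched on both strands, TTTCCCGC was in 1 of the 14 windows, beginning 62 bases before the *Hells* start, and in 1.07% of all 32851 windows. The sister motif TTTGGCGC was also in 1 of the 14 windows (0.514% of all windows), where it begins 33 bases after *Dnmt1* start site 3 and so lies past the printed bases. CACGTG was in 2 of the 14 windows and in 7.15% of all windows, beginning 80 bases before *Dnmt3a* start site 3 and 44 bases before *Dnmt3l* start site 2. CCAAT, the motif of the factor NF-Y, was in 4 of the 14 windows, those of *Dnmt1* start sites 1 and 3 and of both *Uhrf1* start sites, and in 37.4% of all windows. The windows also differ in CpG sites, with a median of 7 per window over all windows. The single *Hells*, *Dnmt3b* and *Uhrf2* windows hold 34, 30 and 28, those of *Dnmt3a* 46, 47 and 18, and those of *Dnmt3l* 6, 4 and 3. Gene-level TPM do not show which start site was in use, and a motif match describes letters only.

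Values are given on 2 scales. The deposited TPM are abundances per transcript length that sum to the same total in every library, so they give a gene's share of the library. Spike-in normalized TPM are the deposited TPM times 1 factor per library, which puts them on the scale of RNA per fixed number of cells and was the scale of the tests. On this scale the median of all tested genes moved by −0.33, −0.33 and −0.83 (log2) in wild type at 24, 72 and 144 h, and in DKO by −0.49 (24 h) and −0.12 (72 h), while in deposited TPM it moved by at most 0.14 (DKO at 72 h). On this scale the 2 DKO libraries at 24 h stood apart, with a mean of 41.1 and 24.9 over all genes, as did those at 72 h with 46.5 and 31.7. Both wild-type libraries at 0 h had the same mean of 38.8, and so the same factor. This baseline pair thus showed no spread between libraries in its factor. The *Tet2* target checked the labels, with 15.9 to 22.2 TPM in the 6 DKO libraries and 96.0 to 143 TPM in the 8 wild-type libraries. *Tet1* RNA was 147 to 248 TPM in DKO and 191 to 349 TPM in wild type, and a gene total does not show which exons those transcripts hold. The summed TPM of 7 ES cell markers was 2277 to 2963 in the 14 libraries. That of 5 fibroblast or feeder markers was 1.3 to 17.7, with 4 of the 5 below 1 TPM in both libraries of every group.

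**Figure D1:**
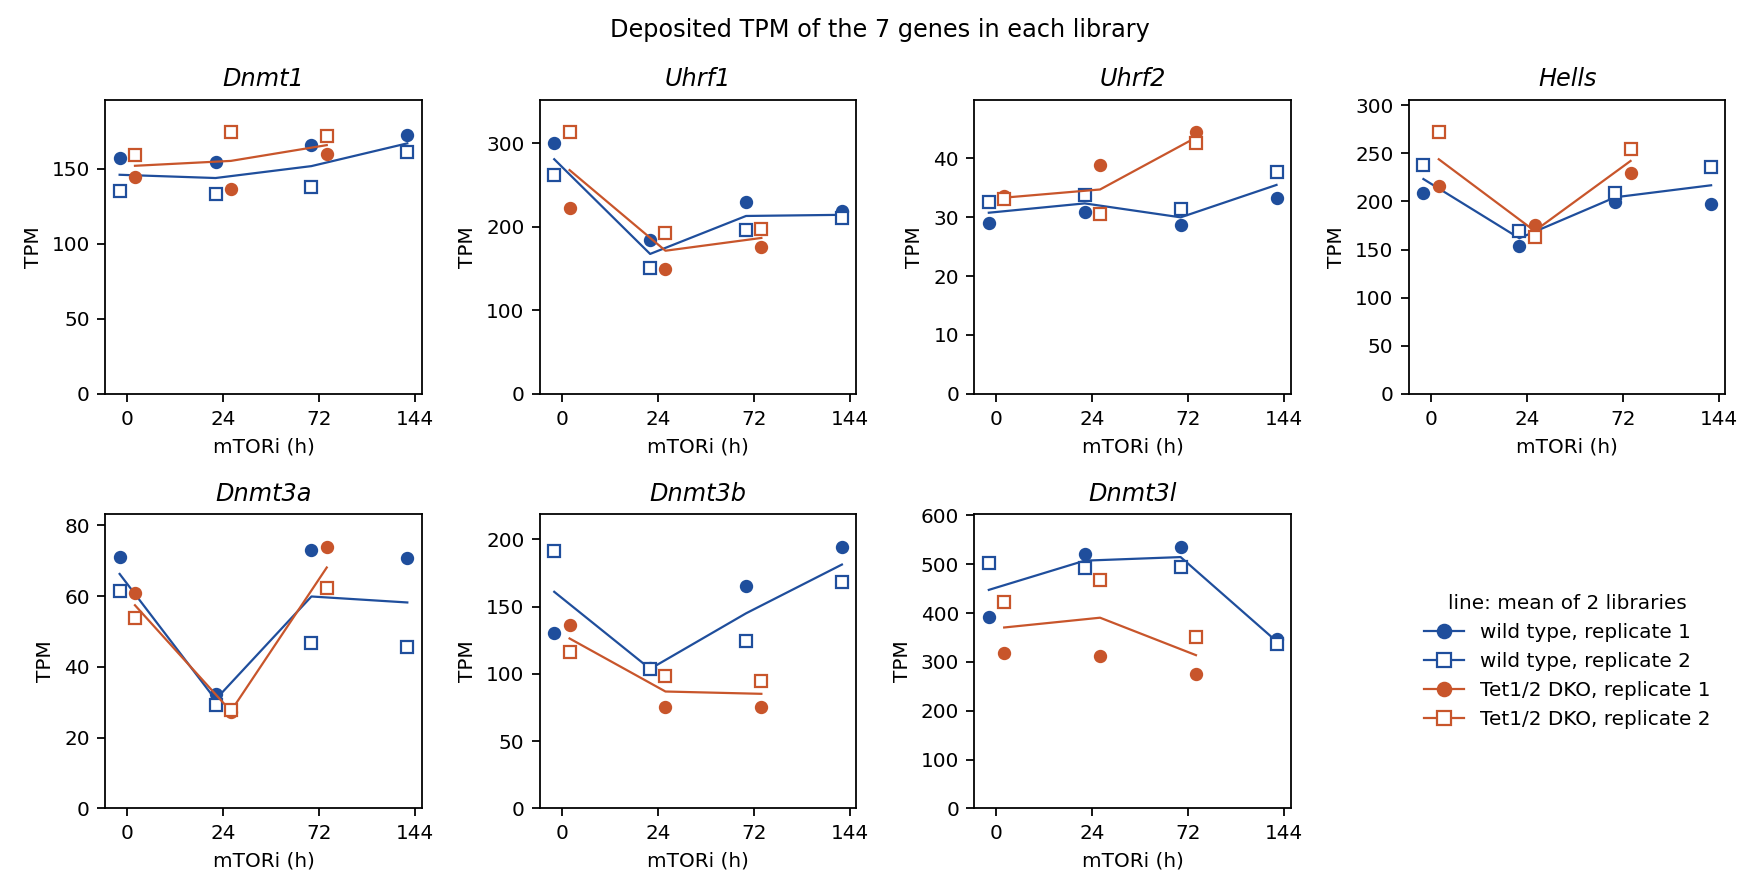
Deposited TPM (vertical axis, from 0) of the 7 genes against hours of mTORi (horizontal axis, categories) in wild-type (blue) and Tet1/2 DKO (orange) cells, with a filled circle for replicate 1, an open square for replicate 2 and a line through the means of 2 libraries. Dnmt3a falls to between 27.1 and 32.3 TPM in the 4 libraries at 24 h from 53.8 to 71.0 TPM at 0 h, while Dnmt1 stays between 133 and 174 TPM in all 14 libraries.

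In untreated wild-type cells the cofactor gene *Dnmt3l* had the highest level of the 7, with 393 and 502 TPM. *Uhrf1* followed with 300.0 and 262 TPM, then *Hells* with 209 and 238 TPM. *Dnmt3b* had 131 and 191 TPM and *Dnmt1* 157 and 135 TPM, and these neighbours overlapped. *Dnmt3a* had 71.0 and 61.5 TPM and *Uhrf2* 28.9 and 32.5 TPM. Apart from *Dnmt3b* and *Dnmt1*, each gene's 2 libraries stood clear of those of the next gene. *Dnmt3l* was the highest of the 7 in each of the 7 groups. The lowest was *Uhrf2* in the 5 groups at 0, 72 and 144 h, and *Dnmt3a* in the 2 groups at 24 h. At 24 h *Dnmt3a* and *Uhrf2* overlapped in wild type (29.2 to 32.3 against 30.9 to 33.8 TPM) and did not overlap in DKO (27.1 to 27.8 against 30.6 to 38.8 TPM).

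Among the maintenance genes, *Dnmt1* kept a steady share of the library. Its deposited TPM were 157 and 135 at 0 h, 155 and 133 at 24 h, 166 and 138 at 72 h, then 173 and 161 at 144 h in wild type. In DKO they were 145 and 159 at 0 h, 136 and 174 at 24 h, then 159.8 and 172 at 72 h. Ordered by their means, all 7 groups overlapped with their neighbours. On the spike-in scale *Dnmt1* had 331 and 285 at 0 h, then 185 and 161 at 144 h in wild type, a difference of the size of the all-gene median (below).

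*Uhrf1*, which recruits DNMT1, was lower after 24 h in both genotypes. In wild type its deposited TPM were 300.0 and 262 at 0 h, 185 and 150.4 at 24 h, 229.8 and 196 at 72 h, then 219 and 210.3 at 144 h. In DKO they were 223 and 313 at 0 h, 150.0 and 193 at 24 h, then 176 and 198 at 72 h. The libraries at 0 h lay above those of every later time in both genotypes. *Uhrf2* showed no such drop, with 28.6 to 37.7 TPM over the 8 wild-type libraries. In DKO it had 33.5 and 33.1 TPM at 0 h, 38.8 and 30.6 TPM at 24 h, then 44.4 and 42.6 TPM at 72 h, and the 72 h pair was above the other 12 libraries.

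*Hells*, the remodeller gene, had 209 and 238 TPM at 0 h, 154 and 169.7 TPM at 24 h, 199.7 and 209 TPM at 72 h, then 197 and 236 TPM at 144 h in wild type. In DKO it had 216 and 272, 176 and 163, and 229 and 255 TPM at 0, 24 and 72 h. The 4 libraries at 24 h lay below the other 10, and the 72 h and 144 h libraries were back in or beside the range of the 0 h libraries.

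The de novo gene *Dnmt3a* showed the same dip at a greater depth. Its deposited TPM in wild type were 71.0 and 61.5 at 0 h, 32.3 and 29.2 at 24 h, 72.9 and 46.8 at 72 h, then 70.8 and 45.5 at 144 h. In DKO they were 61.0 and 53.8 at 0 h, 27.1 and 27.8 at 24 h, then 73.9 and 62.2 at 72 h. The 4 libraries at 24 h were the lowest of the 14, and wild-type replicate 2 was below both 0 h libraries at 72 and 144 h while replicate 1 lay near or within their range.

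*Dnmt3b*, the other de novo enzyme, had 131 and 191 TPM at 0 h, 104 and 103 TPM at 24 h, 165 and 125 TPM at 72 h, then 194 and 168 TPM at 144 h in wild type. In DKO it had 136 and 116 TPM at 0 h, 75.6 and 98.2 TPM at 24 h, then 75.5 and 94.8 TPM at 72 h. Wild-type libraries were thus lowest at 24 h, and the DKO libraries at 72 h were close to those at 24 h. *Dnmt3l* in wild type had 393 and 502, 521 and 493, and 536 and 494 TPM at 0, 24 and 72 h, and 348 and 337 TPM at 144 h. Its DKO libraries had 317 and 424, 312 and 469, and 276 and 352 TPM at 0, 24 and 72 h. The 144 h pair lay below all 6 earlier wild-type libraries, and the groups of DKO overlapped each other.

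**Figure D2:**
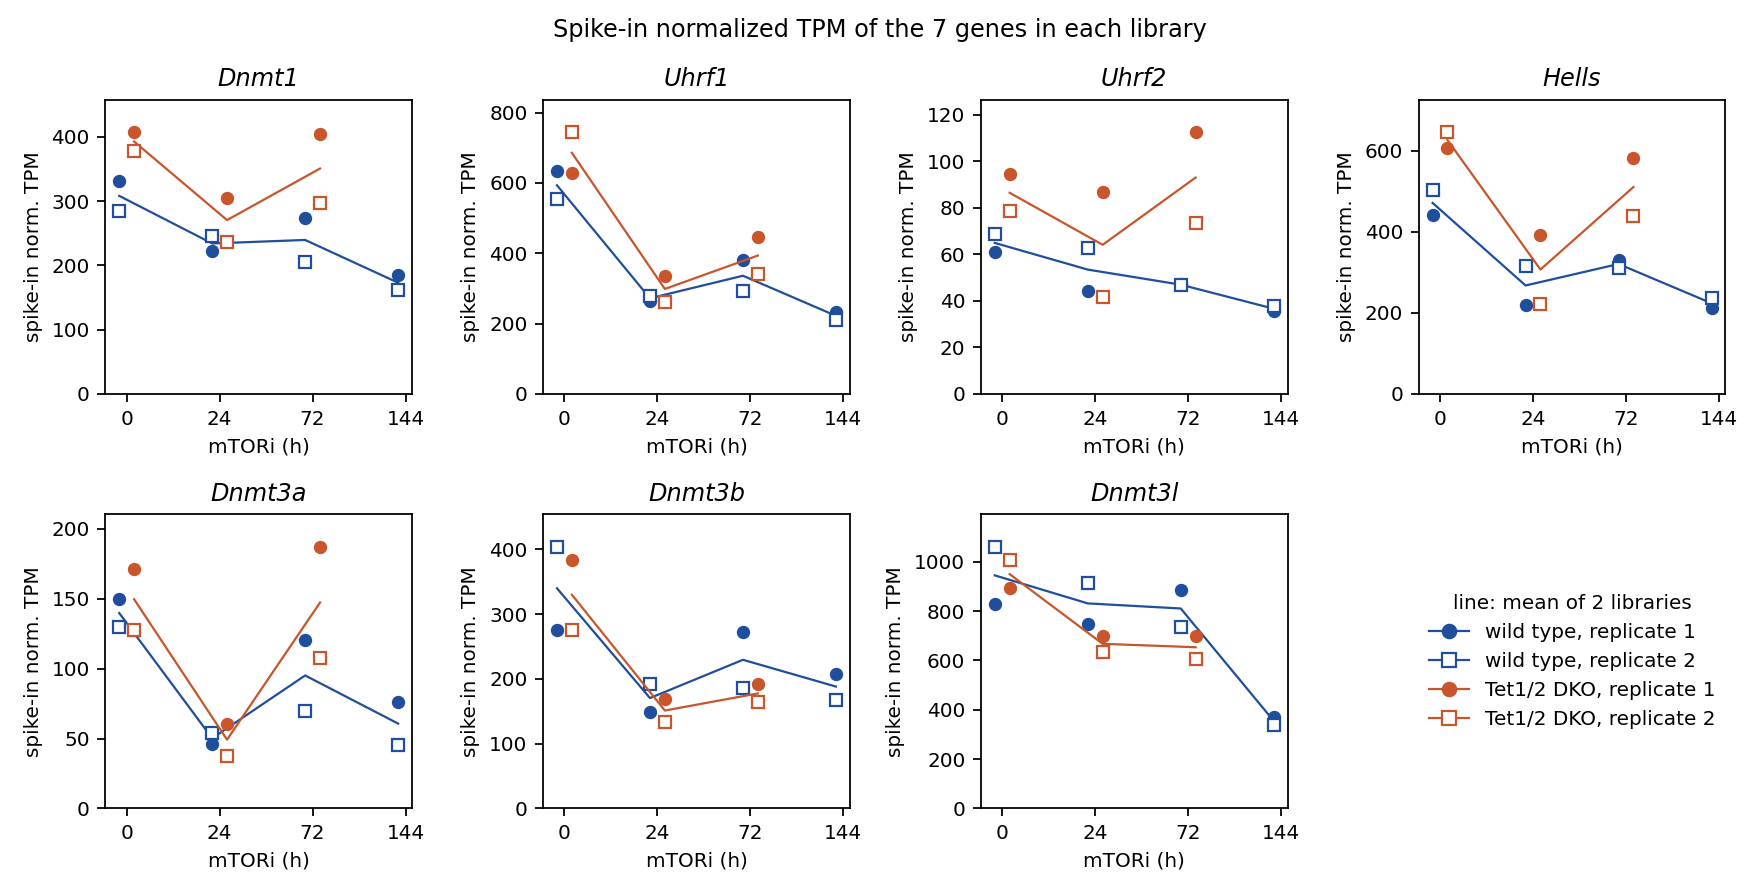
Spike-in normalized TPM (vertical axis, from 0) of the same genes, libraries and symbols as in the plot of deposited TPM. In wild type each of the 7 genes has both 144 h libraries below both 0 h libraries, and Dnmt3a has 46.3 and 54.1 at 24 h against 149.8 and 129.9 at 0 h.

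The first comparison was 24 h of mTORi against 0 h. The test was limma on log2(TPM + 1) of the spike-in normalized values over all 18232 genes, with Benjamini-Hochberg adjustment, and a gene with an adjusted p under 0.05 was called. In wild type 3 of the 7 genes were called lower, where 8.73% of all genes were. *Uhrf1* fell by 1.12 ± 0.26 (SE, log2; adjusted p = 0.00972), *Dnmt3a* fell by 1.46 ± 0.35 (adjusted p = 0.0114) and *Dnmt3b* fell by 0.98 ± 0.29 (adjusted p = 0.0365). *Hells* was at −0.83 ± 0.29 (adjusted p = 0.0689), and with a block on the replicate number within each genotype, which called 25.7% of all genes lower, its adjusted p was 0.0104. *Dnmt1*, *Uhrf2* and *Dnmt3l* had log2 differences of −0.39, −0.29 and −0.18, near the all-gene median of −0.33. In deposited TPM, where 14.1% of all genes were called lower, *Dnmt3a* (−1.08), *Uhrf1* (−0.75), *Dnmt3b* (−0.60) and *Hells* (−0.46) were called lower, with adjusted p of 0.00482, 0.0102, 0.0481 and 0.0221.

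In DKO cells 4 of the 7 genes were called lower at 24 h, where 18.7% of all genes were. *Dnmt3a* fell by 1.61 ± 0.35 (SE, log2; adjusted p = 0.00404) and *Uhrf1* fell by 1.20 ± 0.26 (adjusted p = 0.004). *Dnmt3b* fell by 1.11 ± 0.29 (adjusted p = 0.0122) and *Hells* fell by 1.08 ± 0.29 (adjusted p = 0.0134). The other 3 genes had differences between −0.51 and −0.55, near the all-gene median of −0.49. Without DKO 24 h replicate 1, the library with the higher mean, *Uhrf2* was at −1.03 (adjusted p = 0.0104) and *Dnmt1* at −0.73 (adjusted p = 0.0367), and both were called. With the block within genotype, which called 38.1% of all genes lower, *Dnmt1* was called as well (−0.55, adjusted p = 0.0418). In deposited TPM, where 13.3% of all genes were called lower, *Dnmt3a* (−1.03), *Uhrf1* (−0.63) and *Hells* (−0.51) were called, with adjusted p of 0.00747, 0.0258 and 0.0159, and *Dnmt3b* was not (−0.54, adjusted p = 0.0801). The response in DKO minus that in wild type at 24 h lay between −0.33 and −0.08 for the 7 genes on the spike-in scale and between −0.13 and 0.11 in deposited TPM. Limma called 0 of the 7 for this difference on either scale, with 0 at an unadjusted p under 0.05, where 0.00548% of all genes were called on the spike-in scale and 0.0% in deposited TPM. The 95% interval of the difference for *Dnmt3a* was −1.17 to 0.87.

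These calls rest on few libraries. In wild type *Dnmt3b* lost its call without 24 h replicate 2 (−1.16) or either 144 h library (−0.98), beside the cases that follow. Leaving out wild-type 0 h replicate 1, 0 h replicate 2 or 24 h replicate 1 left 0 of the 7 genes called in wild type, where 3.12%, 1.58% and 1.46% of all genes were called lower, although *Dnmt3a* was still at −1.36, −1.56 and −1.35 (adjusted p = 0.0783, 0.0583 and 0.0944) and *Uhrf1* at −1.02, −1.22 and −1.08. In DKO, leaving out 0 h replicate 1, 0 h replicate 2 or 24 h replicate 2 left 1, 2 and 2 of the 7 called, where 4.17%, 9.0% and 5.35% of all genes were called lower. Leaving out DKO 24 h replicate 1 raised the count to 6 of the 7, where 47.7% of all genes were called lower. The labels give the replicates as numbers alone, so the p-values measure the spread between these libraries. In bulk RNA, fewer cells of a type and less RNA per cell cannot be told apart. The primitive endoderm markers *Gata4*, *Gata6*, *Sox17*, *Sox7*, *Pdgfra* and *Dab2* moved at the same time. Their summed TPM was 100.4 to 182 in wild type at 24 h against 12.6 to 42.4 at 0 h, and 29.8 to 70.6 in DKO at 24 h against 13.3 to 40.5 at 0 h. All 6 were at 1 TPM or more in a library of each of these groups. The summed TPM of 5 neuroectoderm markers was lower at 24 h, with 6.82 to 8.25 against 14.7 to 17.4 at 0 h in wild type and 5.42 to 6.44 against 11.4 to 13.5 in DKO, and 2 of the 5 were below 1 TPM in both libraries of each group. The fibroblast or feeder markers were also lower at 24 h, with 1.28 to 2.83 against 5.71 to 8.23 in wild type and 2.68 to 7.39 against 10.5 to 17.7 in DKO. The 4 mesendoderm markers summed to 5.49 to 6.72 at 24 h against 1.74 to 2.81 at 0 h in wild type, and the times overlapped in DKO. Trophectoderm markers summed to 11.1 to 12.5 against 7.76 to 10.95 in wild type and overlapped in DKO. The part of these markers in the 24 h values of the 7 genes was not tested.

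**Figure D3:**
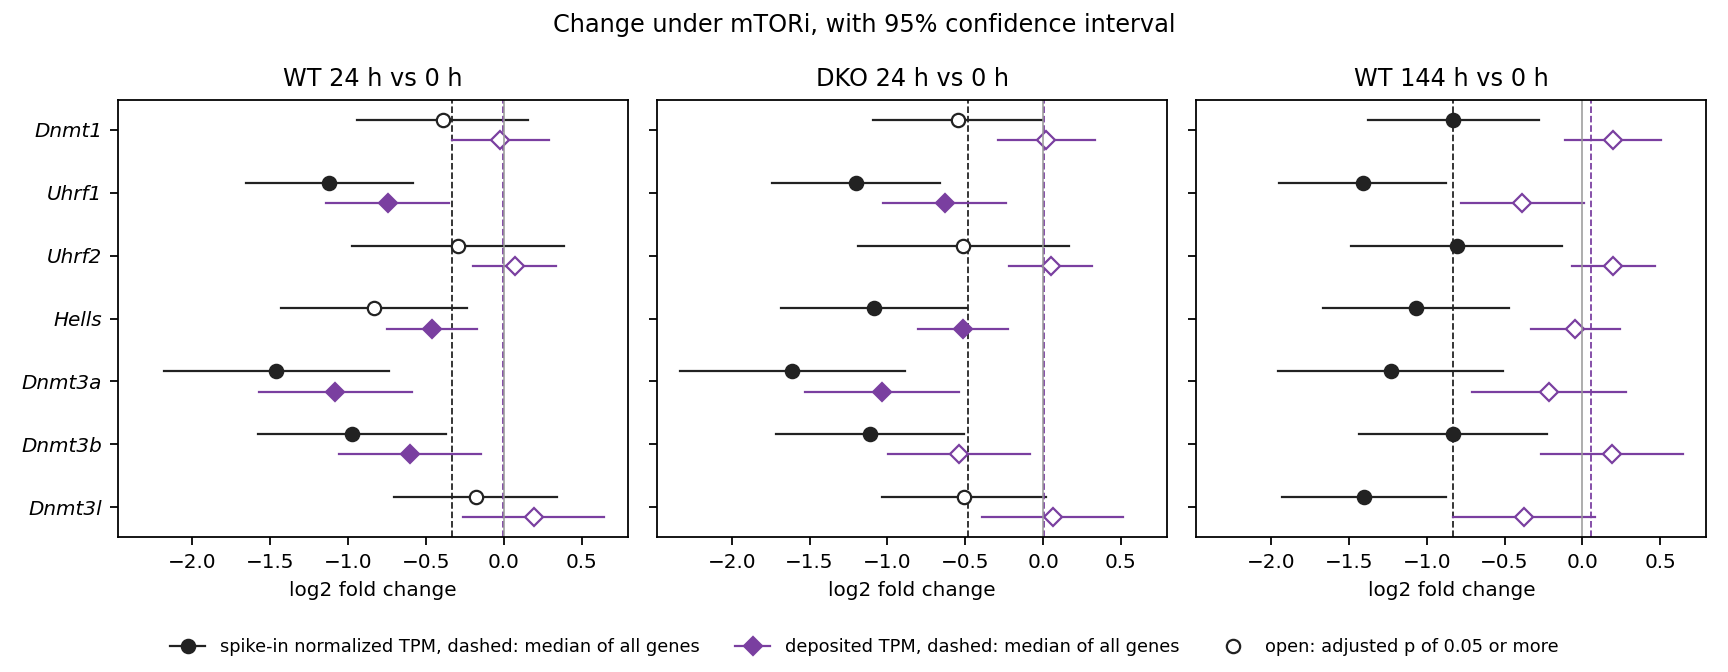
Log2 fold change (horizontal axis) with its 95% confidence interval for the 7 genes in 3 comparisons, on the spike-in scale (black circles) and in deposited TPM (purple diamonds), with the median of all genes dashed on each scale and open symbols for an adjusted p of 0.05 or more. At 24 h Dnmt3a, at −1.46 in wild type and −1.61 in DKO, lies furthest below the median. At 144 h all 7 genes are called on the spike-in scale, and in deposited TPM 0 of the 7 are.

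The second comparison was 72 h against 0 h. In wild type 0 of the 7 genes were called in limma (1 had an unadjusted p under 0.05), where 8.29% of all genes were called in either direction. *Uhrf1* was nearest, at −0.83 ± 0.26 (SE, log2; adjusted p = 0.0516), and it was called with the block within genotype (adjusted p = 0.00854), as were 25.4% of all genes. It was also called when any of the 4 DKO libraries at 24 h or 72 h was left out, with an adjusted p of 0.0148 to 0.0413, and the share of all genes called lower then rose from 7.6% to 17.2% and 17.1% (without a 24 h library) or 9.06% and 9.04% (without a 72 h library). In DKO 0 of the 7 were called at 72 h (3 had an unadjusted p under 0.05), where 3.66% of all genes were called in either direction. The block within genotype, which called 13.2% of all genes lower, called *Dnmt3b* (−0.88, adjusted p = 0.0168) and *Uhrf1* (−0.81, adjusted p = 0.0145), as did leaving out either DKO library at 24 h, where 7.95% and 7.93% of all genes were called lower. In deposited TPM *Uhrf2* was called higher in DKO at 72 h (0.38, adjusted p = 0.042), where 17.2% of all genes were.

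The return of *Dnmt3a* between 24 h and 72 h was tested after its values had been seen. In DKO it rose by 1.55 ± 0.35 (SE, log2) from 24 h to 72 h (adjusted p = 0.0247), where 1.32% of all genes were called higher, and by 1.27 in deposited TPM (adjusted p = 0.0135), where 4.47% were. Without DKO 24 h replicate 2 it was at 1.21 (adjusted p = 0.177), and without DKO 72 h replicate 1 at 1.15 (adjusted p = 0.458). In wild type it was at 0.86 ± 0.35 (adjusted p = 0.338), where 0.428% of all genes were called higher. It was called there with the block within genotype (adjusted p = 0.0314, with 3.2% of all genes) and in deposited TPM (0.91, adjusted p = 0.0286, with 5.33%). *Hells* in DKO was at 0.78 ± 0.29 (adjusted p = 0.199), and was called with the block (adjusted p = 0.032, with 12.7% of all genes) and in deposited TPM (0.51, adjusted p = 0.0466). *Dnmt3b* in DKO did not follow, with 0.24 on the spike-in scale and −0.03 in deposited TPM. Over all genes the median of this step was 0.37 and 0.13 on these scales in DKO, and −0.012 and 0.035 in wild type. Marker levels moved between these times too. The summed TPM of the 6 primitive endoderm markers was 13.6 to 38.6 at 72 h in wild type and 23.5 to 34.2 in DKO, which lay below the 24 h values in wild type and overlapped them in DKO. The 5 neuroectoderm markers summed to 10.7 to 11.003 at 72 h in wild type and 10.9 to 11.5 in DKO, above the 24 h values in both. The 4 mesendoderm markers (1.56 to 2.95) were below and the 5 fibroblast or feeder markers (3.02 to 4.72) above their 24 h values in wild type. In DKO these were at 2.74 to 2.79 and 4.89 to 7.398, and the trophectoderm markers were at 9.31 to 9.33 in wild type and 7.35 to 8.91 in DKO. The part of these markers in the return was not tested.

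At 144 h, which was sampled in wild type only, all 7 genes were called lower than at 0 h on the spike-in scale, where 50.5% of all genes were. The log2 differences ran from −0.81 (*Uhrf2*) to −1.41 (*Uhrf1*), with −1.40 for *Dnmt3l* and −1.23 for *Dnmt3a*, against an all-gene median of −0.83. *Dnmt1* and *Dnmt3b*, at −0.83 each, and *Uhrf2* were at that median. In deposited TPM, where 27.3% of all genes were called in either direction, limma called 0 of the 7, with 0 at an unadjusted p under 0.05, and *Dnmt1*, *Uhrf2* and *Dnmt3b* were at 0.20, 0.20 and 0.19. With the block within genotype, deposited TPM called 15.6% of all genes lower, among them *Uhrf1* (−0.39, adjusted p = 0.0115) and *Dnmt3l* (−0.38, adjusted p = 0.035). The summed TPM of the neuroectoderm markers was 12.8 to 13.7 at 144 h against 14.7 to 17.4 at 0 h. Fibroblast or feeder markers summed to 4.53 to 5.65 against 5.71 to 8.23, and ES cell markers to 2804.5 to 2879 against 2525 to 2565. The primitive endoderm, mesendoderm and trophectoderm markers overlapped. The part of these markers in the 144 h values was not tested. Without wild-type 0 h replicate 2, 144 h replicate 1 or 144 h replicate 2, 3 of the 7 were called, where 23.9%, 29.9% and 21.5% of all genes were called lower. *Dnmt1* lost its call without any of the 4 libraries compared (adjusted p = 0.0519 to 0.124). *Uhrf2* lost it without any of these (adjusted p = 0.0935 to 0.191) and also without either wild-type library at 72 h or either DKO library at 0 h (adjusted p = 0.0516 to 0.0592). *Dnmt3b* lost it without 3 of the 4 libraries (adjusted p = 0.0521 to 0.252), *Hells* without 2 (0.0506 and 0.059) and *Dnmt3a* without 144 h replicate 2 (0.121), while *Uhrf1* and *Dnmt3l* were called in every case.

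From 72 h to 144 h *Dnmt3l* was the only gene of the 7 called, where 0.389% of all genes were called lower. It fell by 1.19 ± 0.25 (SE, log2; adjusted p = 0.0439), from 885 and 736 to 372 and 337 spike-in normalized TPM, against an all-gene median of −0.50. In deposited TPM, where 0.121% of all genes were called lower, the difference was −0.59 (adjusted p = 0.341). Leaving out any library of the 3 groups at wild-type 0, 72 and 144 h or of DKO at 0 h ended this call, with an adjusted p of 0.057 to 0.583, and the estimate stayed between −1.05 and −1.32.

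Ratios between genes within a library do not depend on the library factors. They were not tested and are given as values. *Uhrf1* RNA was 1.91 and 1.94 times that of *Dnmt1* at 0 h in wild type, 1.19 and 1.13 times at 24 h, 1.39 and 1.43 times at 72 h, then 1.26 and 1.31 times at 144 h. In DKO the ratio was 1.54 and 1.96 at 0 h, 1.10 and 1.11 at 24 h, then 1.10 and 1.15 at 72 h. Every later library was thus below every 0 h library, and at 72 h both DKO libraries were below both wild-type libraries. *Dnmt3l* stood at 3.0 and 2.62 times *Dnmt3b* at 0 h in wild type, 5.01 and 4.78 times at 24 h, then 1.79 and 2.00 times at 144 h, so the 24 h pair was highest and the 144 h pair lowest.

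*Dnmt3a* reached 0.978 and 0.656 of *Dnmt3b* in DKO at 72 h, and 0.271 to 0.543 of it in the other 12 libraries. *Dnmt1* was 2.12 and 1.81 times *Dnmt3b* in the same DKO libraries and 1.0 and 1.10 times in wild type at 72 h. At 24 h this ratio was 1.80 and 1.77 in DKO against 1.49 and 1.29 in wild type, so it was already higher in DKO by then. *Uhrf2* was 0.0964 and 0.124 of *Uhrf1* at 0 h in wild type, 0.167 and 0.225 at 24 h, then 0.125 and 0.159 at 72 h. In DKO it was 0.150 and 0.106 at 0 h, 0.258 and 0.159 at 24 h, then 0.252 and 0.216 at 72 h. The genotypes overlapped at 0 and 24 h for this ratio, and at 72 h both DKO libraries were above both wild-type libraries.

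**Figure D4:**
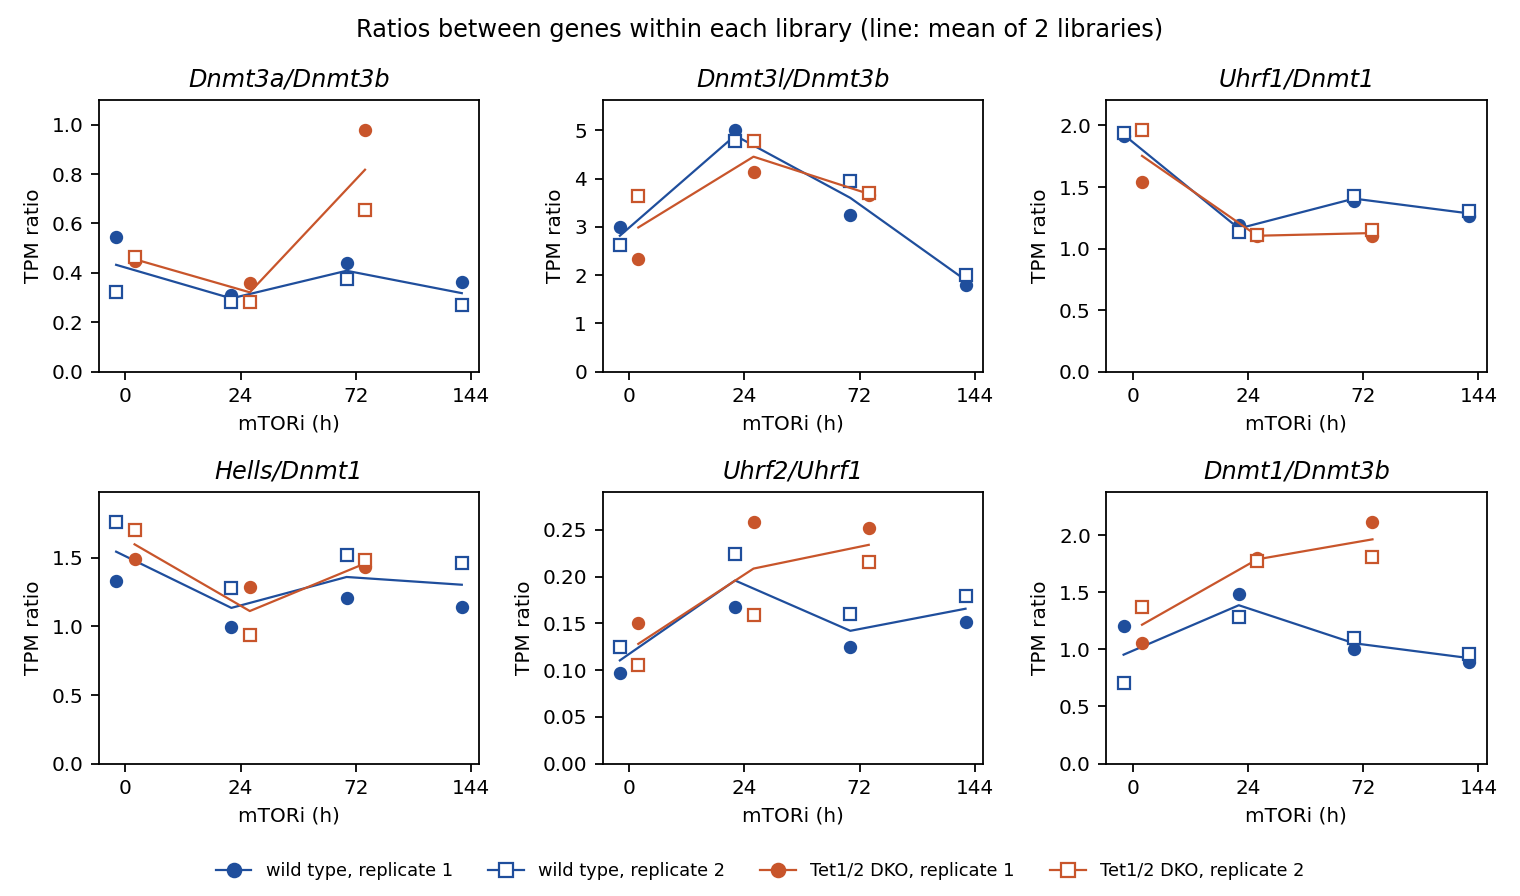
TPM of 1 gene divided by that of another in the same library (vertical axis, from 0) against hours of mTORi, with the symbols of the plots of levels. Uhrf1/Dnmt1 drops from between 1.54 and 1.96 at 0 h to between 1.10 and 1.19 at 24 h in both genotypes, and Dnmt3a/Dnmt3b is highest in the 2 DKO libraries at 72 h.

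The next comparison asked whether loss of *Tet1/2* changed the writers. At 0 h and at 24 h limma called 0 of the 7 genes between DKO and wild type on either scale, with 0 at an unadjusted p under 0.05, where 0.0439% of all genes were called at each time on the spike-in scale and 0.598% and 1.37% in deposited TPM. The 95% intervals at 0 h were wide, from −0.19 to 0.90 for *Dnmt1*, from −0.63 to 0.81 for *Dnmt3a* and from −0.64 to 0.57 for *Dnmt3b*. At 72 h 0 of the 7 were called on the spike-in scale (2 had an unadjusted p under 0.05), where 0.329% of all genes were. *Uhrf2* was at 0.94 ± 0.33 (SE, log2; adjusted p = 0.162), with 112 and 73.6 in DKO against 47.3 and 46.6 in wild type. Leaving out either DKO library at 24 h, which alters the shared estimate of the spread, brought it to an adjusted p of 0.0363 and 0.0364, and the share of all genes called higher then rose from 0.302% to 6.73% and 6.66%. In deposited TPM it was called higher (0.52 ± 0.12, adjusted p = 0.0414), where 3.17% of all genes were.

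*Dnmt3b* and *Dnmt3l* had lower deposited TPM in DKO at 72 h. *Dnmt3b* had 75.5 and 94.8 TPM in DKO against 165 and 125 TPM in wild type, and *Dnmt3l* had 276 and 352 TPM against 536 and 494 TPM, without overlap in either case. In deposited TPM the differences were −0.76 ± 0.21 (SE, log2; adjusted p = 0.0685) and −0.72 ± 0.21 (adjusted p = 0.0787), and neither was called. On the spike-in scale, where the all-gene median was 0.49, they were −0.35 (adjusted p = 0.399) and −0.31 (adjusted p = 0.391), and the *Dnmt3b* libraries overlapped. *Dnmt3a*, at 0.62 and 0.21 on the 2 scales, and *Dnmt1*, at 0.55 and 0.13, were above 0 on both and not called. For the response at 72 h in DKO minus that in wild type, limma called 0 of the 7 on either scale, as it did 0.0% of all genes. On the spike-in scale 0 had an unadjusted p under 0.05, and in deposited TPM 1 had. At 72 h the summed TPM of ES cell markers was 2277 to 2406 in DKO against 2513 to 2620 in wild type. Trophectoderm markers summed to 7.35 to 8.91 against 9.31 to 9.33, and fibroblast or feeder markers to 4.89 to 7.40 against 3.02 to 4.72. The primitive endoderm, neuroectoderm and mesendoderm markers overlapped. The part of these markers in the genotype differences was not tested.

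**Figure D5:**
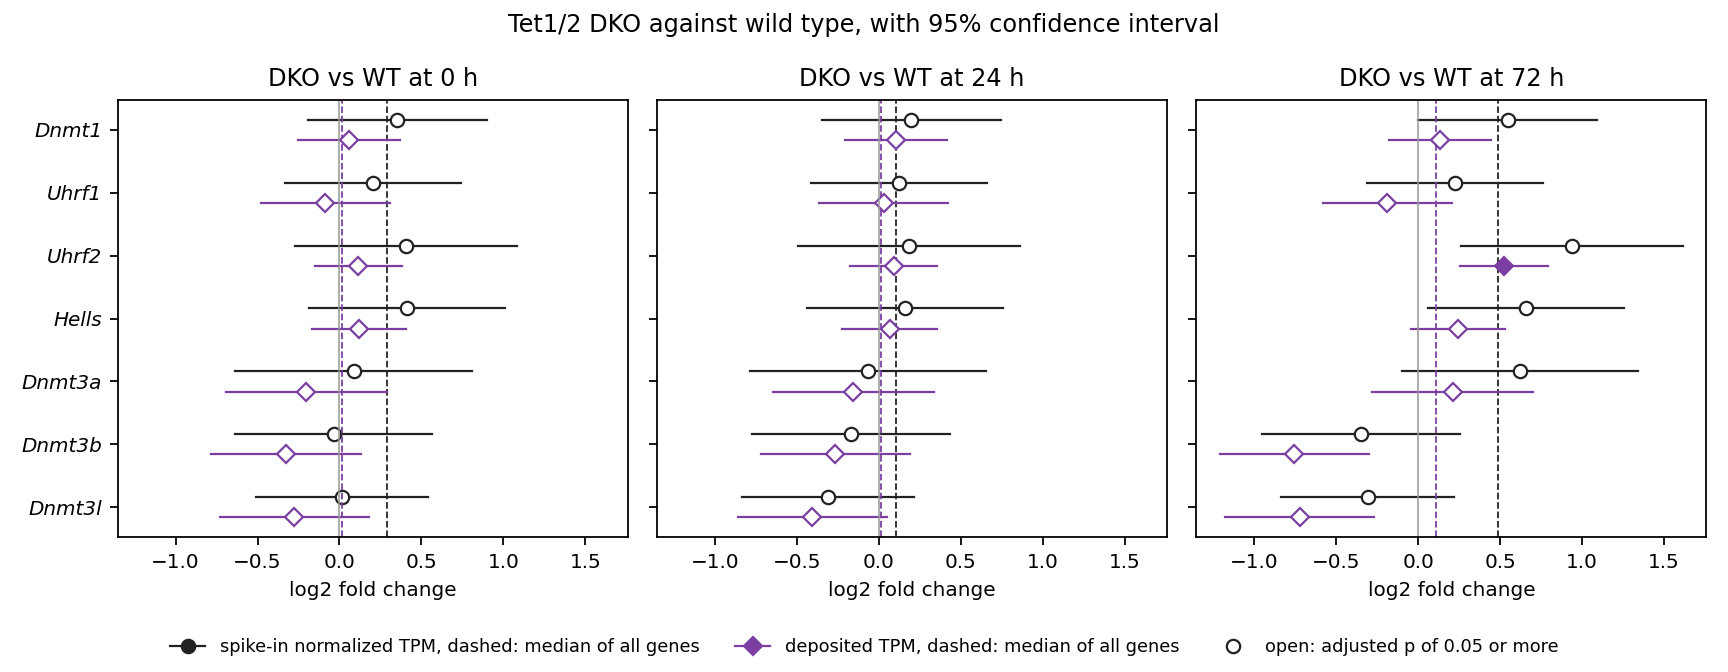
Log2 fold change of Tet1/2 DKO against wild type (horizontal axis) with its 95% confidence interval for the 7 genes at 0, 24 and 72 h, with the scales and symbols of the plot of changes under mTORi. Uhrf2 at 72 h in deposited TPM (0.52) is the only filled symbol, and at 72 h Dnmt3b and Dnmt3l lie below 0 on both scales while the other genes, except Uhrf1 in deposited TPM, lie above it.

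A list of 38 other genes of the pathway was read in the same fits, all of them tested. At 24 h 5 of the 38 were called lower in wild type and 11 in DKO, where 8.73% and 18.7% of all genes were, with 0 called higher in either and list medians of −0.36 and −0.70 against all-gene medians of −0.33 and −0.49. Both fits called *Pclaf* (−2.50 in wild type and −2.45 in DKO), the PCNA-binding factor that helps bring DNMT1 to replicating DNA, and *Pcna* (−1.54 in each), the sliding clamp. They also called *Ahcy* (−1.67 and −1.74), which clears the by-product of methyl transfer, and *Mbd3* (−1.0 and −1.23), a subunit of the NuRD complex. *Mat2a*, which makes the methyl donor S-adenosylmethionine, was called in wild type (−1.0) and was at −0.81 in DKO (adjusted p = 0.0605). The other 7 genes called in DKO were *Cdca7l*, *Ehmt2*, *Kdm1a*, *Lig1*, *Tdg*, *Trim28* and *Usp7*, at −0.77 to −1.04. With the block within genotype 14 of the 38 were called lower in wild type and 19 in DKO, against 25.7% and 38.1% of all genes.

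By role, 2 of 3 genes of methyl group supply and 2 of 21 recruitment and cofactor genes were called lower in wild type at 24 h. Among antagonists of methylation 0 of 6 were, and among genes listed as readers 1 of 8. In DKO the counts were 1 of 3, 8 of 21, 1 of 6 and 1 of 8. The gene listed as a reader was in both genotypes *Mbd3*, the NuRD subunit. The shares of all genes called lower, given above, apply to these counts too. With deposited TPM 11 of the 38 were lower and 7 higher in wild type at 24 h, where 14.1% and 15.8% of all genes were. In DKO 9 were lower and 7 higher, where 13.3% and 11.6% of all genes were, and *Tet1* (0.44 and 0.31) was among those higher in both genotypes. At 72 h 4 were called lower in wild type (*Pclaf*, *Ahcy*, *Pcna* and *Ehmt2*) and 2 in DKO (*Pclaf* and *Pcna*), where 7.6% and 2.95% of all genes were. At 144 h 27 of the 38 were called lower in wild type, where 50.5% of all genes were. They were *Ahcy*, *Mat2a*, *Tdg*, *Mbd2*, *Mbd3*, *Zbtb38*, *Dppa3* and all the recruitment and cofactor genes but *Dnmt3c*, that is *Pclaf*, *Ehmt2*, *Pcna*, *Lig1*, *Kdm1a*, *Smarca5*, *Trim28*, *Zbtb24*, *Setdb1*, *Daxx*, *Kdm1b*, *Usp7*, *Setd2*, *Trdmt1*, *Atrx*, *Cdca7l*, *Cdca7*, *Ehmt1*, *Zfp57* and *Nsd1*. *Dppa3*, which displaces UHRF1 from chromatin, was the lowest at −3.87, and its deposited TPM were 7.3 and 28.7 at 0 h, then 2.0 and 0.51 at 144 h.

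Since maintenance is tied to replication, 28 S phase genes were read beside them. At 24 h 8 of 28 were called lower in wild type and 17 of 28 in DKO on the spike-in scale, with medians of −0.54 and −0.85 and 0 called higher in either. Over all genes 8.73% and 18.7% were called lower. The block within genotype called 13 and 23 of them lower, against 25.7% and 38.1% of all genes. In deposited TPM 12 of 28 were lower and 3 higher in wild type, where 14.1% and 15.8% of all genes were. In DKO 12 were lower and 2 higher, where 13.3% and 11.6% of all genes were. *Ccne1*, which encodes cyclin E1, was the lowest at −2.52 and −2.40. *Uhrf1* and *Hells* were each below the median of the S phase genes at 24 h in both genotypes and on both scales, and *Dnmt1* was above it. The part of cell cycle stage in these values was not tested.

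The genes whose profile over the 14 libraries was closest to each of the 7 were found by Pearson's r of log2 spike-in normalized TPM minus the library median, among the 8597 genes whose mean reached 10 TPM and whose span reached 200 bases. These r values describe libraries that fall into the same 7 groups, and they carry no test. *Uhrf1* was nearest to *Tuba1b* (0.979), *Dpy30* (0.976) and *Rinl* (0.976), and *Dnmt3b* to *Bend3* (0.974), *Slc38a2* (0.970) and *Zbtb8a* (0.969). *Hells* was nearest to the mitochondrial genes *mt-Nd1* (0.970) and *mt-Nd2* (0.958) and to *Tfrc* (0.953). The highest r was lower for the other 4. *Dnmt1* was nearest to *0610010K14Rik* (0.928), *Arl6ip4* (0.911) and *Serbp1* (0.897), and *Dnmt3a* to *Xbp1* (0.90), *4833439L19Rik* (0.898) and *Uchl1* (0.882). *Uhrf2* was nearest to *Evi5* (0.885), *Glmn* (0.866) and *Ice2* (0.858), and *Dnmt3l* to *Gm38324* (0.867), *Gdf3* (0.863) and *Topors* (0.860). In deposited TPM without centring, the 3 nearest genes were the same 3 for *Dnmt3b*, 2 of them remained for *Uhrf1* and *Uhrf2*, and 1 for each of the other 4.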

How the data were processed

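RNA-seq of 14 libraries (7 groups of 2) was analysed. Before deposit, the authors used cutadapt 2.4 for trimming, STAR for alignment to mm10 and StringTie with GENCODE VM19 for quantification (per the submitters' processing notes, STAR 2.7.3a and StringTie 2.0). The deposited TPM add up to 1000000 in each library, and entries of the same identifier were summed. TPM keep no read counts, so depth and counting error are unknown. Between 28306 and 29927 genes were above 0 per library. Each library was multiplied by the median ratio of the authors' spike-in normalized table (its first 1999 entries, genes of at least 1 TPM) to the deposited TPM. In every library 100% of these ratios lay within 0.1% of the median, and an error in a factor moves all genes of a library together.

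Genes whose mean spike-in normalized TPM reached 1 were fitted on log2(TPM + 1), which understates changes of low genes, in limma 3.58.1 (R 4.3.3) with all 7 groups and a mean-variance trend, and p-values were adjusted by Benjamini-Hochberg per comparison. The script was tested on simulated data. The authors' own comparisons were not used. The study states that time points of a replicate were processed in parallel. Replicate differences correlated at 0.222 to 0.341 in 3 of 3 pairs of groups within DKO and at 0.0622 to 0.398 within wild type (5 of 6 pairs over 0.1). Between genotypes 10 of 12 were below 0. The numbers were therefore taken to pair libraries within a genotype only. The block within genotype leaves no spread for the comparisons between genotypes, so it was run on the others only. The 72 h against 24 h comparisons were added after seeing the data. The members and gene lists were chosen with earlier results of these data known. The text names the 7 genes, listed partners that passed the test against 0 h or were lowest at 144 h, and the 3 nearest genes of each member. One listed gene is not reported here by name.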

Additional observations from a re-analysis of the deposited data

Results flagged for a closer look

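The response of *Dnmt3l* at 72 h of mTORi in deposited TPM met an untested criterion, in that both wild-type libraries lay on one side of their 0 h mean and both DKO libraries on the other. Wild-type libraries had 536 and 494 TPM against a 0 h mean of 448 TPM, and DKO libraries had 276 and 352 TPM against 370 TPM. The response in DKO minus that in wild type was −0.45 (log2), and limma did not call this difference (adjusted p = 0.999). On the spike-in scale it was −0.32. There both genotypes lay below their 0 h means at 72 h, so the criterion was not met. Wild-type libraries had 885 and 736 against 945, and DKO libraries 699 and 607 against 950. In deposited TPM the 0 h libraries spanned 393 to 502 TPM in wild type and 317 to 424 TPM in DKO.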

How the results depend on the processing

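Each group has 2 libraries, and TPM keep no counts, so no value has its counting error or depth beside it. The 2 scales answer different questions, and the sign of small differences depends on the choice. A pseudocount of 0.1 left all 91 fold changes and 26 counts of called genes on the same side of the threshold.

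In deposited TPM these log2 differences turned above 0: at 24 h *Uhrf2* (0.071) and *Dnmt3l* (0.19) in wild type and *Dnmt1* (0.021), *Uhrf2* (0.048) and *Dnmt3l* (0.061) in DKO; at 72 h *Dnmt1* (0.053) and *Dnmt3l* (0.21) in wild type and *Dnmt1* (0.13) and *Dnmt3a* (0.24) in DKO; at 144 h *Dnmt1* (0.20), *Uhrf2* (0.20) and *Dnmt3b* (0.19). From 72 to 144 h *Dnmt1* (0.14), *Uhrf1* (0.013), *Uhrf2* (0.23), *Hells* (0.080) and *Dnmt3b* (0.33) did, and from 24 to 72 h *Dnmt3l* in wild type (0.020), with *Dnmt3b* in DKO at −0.026. DKO against wild type turned to −0.085 (*Uhrf1*), −0.20 (*Dnmt3a*) and −0.28 (*Dnmt3l*) at 0 h and −0.19 (*Uhrf1*) at 72 h. The difference of responses turned to 0.043 (*Dnmt1*), 0.11 (*Uhrf1*), 0.047 (*Dnmt3a*) and 0.062 (*Dnmt3b*) at 24 h and −0.10 (*Uhrf1*) at 72 h. Counts of called genes became 0 at 144 h against 0 h and against 72 h, 1 and 2 higher from 24 to 72 h in wild type and DKO, 1 higher in DKO at 72 h and 1 higher in DKO against wild type at 72 h.

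Centring each library on its median turned *Dnmt3l* to 0.086 and 0.073 in wild type at 24 and 72 h, *Dnmt1* (0.0062), *Uhrf2* (0.028) and *Dnmt3b* (0.0026) at 144 h, *Dnmt1* (0.090), *Uhrf2* (0.19), *Hells* (0.027) and *Dnmt3b* (0.28) from 72 to 144 h, *Dnmt3a* in DKO at 72 h (0.033) and *Dnmt3b* from 24 to 72 h in DKO (−0.13). It turned DKO against wild type to −0.11 (*Uhrf1*), −0.23 (*Dnmt3a*) and −0.30 (*Dnmt3l*) at 0 h and −0.28 (*Uhrf1*) at 72 h, and the difference of responses to 0.037 (*Dnmt1*), 0.11 (*Uhrf1*), 0.041 (*Dnmt3a*) and 0.056 (*Dnmt3b*) at 24 h and −0.0014 (*Dnmt1*) and −0.18 (*Uhrf1*) at 72 h. It called 0 of the 7 lower at 144 h against 0 h (15.2% of all genes) or 72 h (0.11%), 2 lower in DKO at 72 h (16.6%) and 1 higher from 24 to 72 h in wild type (4.34%). Without a filter, with more genes tested, 1 and 2 were lower at 24 h in wild type and DKO (2.34% and 5.93% of all genes), 4 at 144 h (18.2%), 0 from 72 to 144 h (0.036%) and 0 higher from 24 to 72 h in DKO (0.216%). A filter at 5 TPM called 1 lower in wild type at 72 h (11.2%). The cause of these changes was not tested.

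A replicate block across all libraries called 1 lower in wild type at 72 h (7.86% of all genes) and 0 from 72 to 144 h (0.225%). The replicate block within genotype called 1 and 2 lower at 72 h in wild type and DKO and 1 and 2 higher from 24 to 72 h. With deposited TPM as well it kept the signs of deposited TPM, and it called 1 lower in wild type (15.2% of all genes) and 1 lower and 1 higher in DKO (12.3% and 23.5%) at 72 h, 2 lower at 144 h (15.6%), 0 from 72 to 144 h (0.609%) and 3 and 3 higher from 24 to 72 h in wild type and DKO (8.79% and 9.7%). Beside the values given with the results, the block within genotype changed no other call of the 7 genes on the spike-in scale.

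Over all choices of 1 library left out, the number of genes called lower ran from 0 to 4 in wild type and 1 to 6 in DKO at 24 h, 0 to 1 and 0 to 2 at 72 h, 3 to 7 at 144 h and 0 to 1 from 72 to 144 h. The 4 and the 6 at 24 h came where 17.2% and 47.7% of all genes were called lower, the 1 and the 2 at 72 h where 9.04% to 17.2% and 7.93% to 7.95% were, and the 1 from 72 to 144 h where 0.346% to 2.18% were. The number called higher ran from 0 to 3 from 24 to 72 h in DKO (31.5% of all genes at 3) and from 0 to 1 in DKO against wild type at 72 h (6.73% and 6.66% at 1). Log2 differences that changed sign were *Uhrf2* in DKO at 24 h (−1.03 to 0.0092), *Dnmt1* (−0.40 to 0.045), *Dnmt3a* (−0.46 to 0.34) and *Uhrf2* (−0.22 to 0.38) in DKO at 72 h, *Dnmt3l* from 24 to 72 h in DKO (−0.13 to 0.069), *Dnmt1* (−0.19 to 0.23), *Dnmt3l* (−0.18 to 0.11) and *Uhrf2* (−0.41 to 0.083) from 24 to 72 h in wild type and *Dnmt3b* from 72 to 144 h (−0.54 to 0.0090). For DKO against wild type they were *Dnmt3a* (−0.13 to 0.30), *Dnmt3b* (−0.31 to 0.24) and *Dnmt3l* (−0.16 to 0.19) at 0 h, and *Dnmt3a* (−0.40 to 0.27), *Dnmt3b* (−0.35 to 0.0070), *Hells* (−0.25 to 0.57), *Uhrf1* (−0.054 to 0.30) and *Uhrf2* (−0.34 to 0.71) at 24 h. For the difference of responses they were *Dnmt1* (−0.34 to 0.028), *Dnmt3a* (−0.49 to 0.19), *Dnmt3b* (−0.41 to 0.14), *Hells* (−0.66 to 0.16), *Uhrf1* (−0.26 to 0.095) and *Uhrf2* (−0.74 to 0.30) at 24 h and *Dnmt1* (−0.030 to 0.42) and *Uhrf1* (−0.17 to 0.21) at 72 h.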
